A study of Homo sapiens with 6 samples.

Results

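The MYC network was followed through 10 genes chosen by symbol: the MYC paralogs *MYC*, *MYCN* and *MYCL*, their shared partner *MAX*, the *MAX*-binding antagonists *MXI1*, *MXD1*, *MXD3*, *MXD4* and *MNT*, and the large *MAX* partner *MGA*. All 10 were found among the 62710 gene rows analysed, and 9 of them were among the 16347 genes tested, those with a mean normalized value of at least 10 over the 6 libraries. *MYC* was the member that did not reach that mean.

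H526, a human small cell lung cancer (SCLC) cell line, was kept in RPMI-1640 medium with fetal bovine serum. The parental group held 3 libraries of these cells, numbered 1, 2 and 3, with no drug named for them. The onvansertib-resistant group held 3 libraries, numbered 7, 8 and 9, of H526 cells that had been carried through rising onvansertib concentrations, from 10 nM to 75 nM, for a year or longer. Onvansertib inhibits polo-like kinase 1 (PLK1), a mitotic kinase. RNA was extracted from each line at 3 separate times, so the libraries of a group come from 1 cell line each, and p-values measure the spread between those extractions. The labels do not say whether the drug was present when RNA was taken, or whether the resistant line grew from 1 clone.

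Depth, read from the smallest steps between values, was 25641274 to 28476925 reads in the parental and 22302356 to 23275730 in the resistant libraries. A gene with 3 reads, taken as the limit that a value of 0 allows, would have a value of 2.67 to 3.23 depending on the library, and this limit covers counting error only. *POU2F3*, the factor that defines tuft-like SCLC, was at 24511 to 27873 in the 6 libraries, and *NEUROD1* was at 5.49 or less. Of 6 neuroendocrine markers 4 were tested and all 4 were lower in resistant cells, and the sum of the 6 went from 11192 to 12564 in parental libraries to 4289 to 4993 in resistant libraries. Of 5 tuft markers 2 were higher and 2 lower. The sum of 4 fibroblast markers was 73.9 to 99.3 in parental and 249 to 328 in resistant libraries, with *COL1A1* the only one past the threshold. The 3 blood cell markers summed to 17.9 at most, with *CD3E* at 0 in every library. The 2 endothelial markers summed to 245 to 339 and 452 to 491, nearly all of it *VWF*, with *PECAM1* at 0 in all but 1 library. *YAP1* was at 40.9 to 52.9 and 92.6 to 121. The part of these shifts in the results that follow was not tested. The RNA comes from bulk cultures, where fewer cells expressing a gene and less RNA of that gene per cell cannot be told apart.

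MYC proteins do not bind DNA alone. They pair with MAX and sit on E-box letters near the starts of genes for ribosome production, nucleotide synthesis and metabolism, where they recruit coactivators. MXD proteins, MXI1 and MNT pair with the same MAX, bind the same letters and bring in SIN3 and histone deacetylases, while MGA joins MAX to E2F6 in the repressive Polycomb complex PRC1.6, which keeps germline genes silent. H526 is known as a line with extra copies of *MYCN*, and the PLK1 and Aurora A kinases are known to slow the breakdown of the MYCN protein.

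In resistant cells the antagonist *MXD4* was at 0.531 of its parental level. *MNT*, with overlapping groups, and *MGA* were higher by 1.38 and 1.34 times. *MYCN*, at a ratio of 0.965 and also with overlapping groups, did not pass the test. Of the members called, only *MXD4* kept its call under every alternative processing. By limma on log2(value + 1), with Benjamini-Hochberg adjustment at 0.05, 4 of the 9 tested members changed (44.4%), against 37.7% of all genes tested. *MNT* and *MGA* were higher, where 17.8% of all genes were called higher, and *MXD4* and *MXD3* were lower, where 19.8% were called lower. The share of members called is near that of all genes, and nothing is read from it. Parental and resistant values were fully separated for 5 tested members, *MAX*, *MXD1*, *MXD3*, *MXD4* and *MGA*, as they were for 49.9% of all genes tested. The median log2 fold change of the members was -0.05 and that of all genes -0.001, with a median size of 0.26 against 0.30. A positive log2 fold change means higher in resistant cells. Groups of 3 allow an exact permutation p (two-sided) of 0.10 at best for a single gene.

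**Figure D1:**
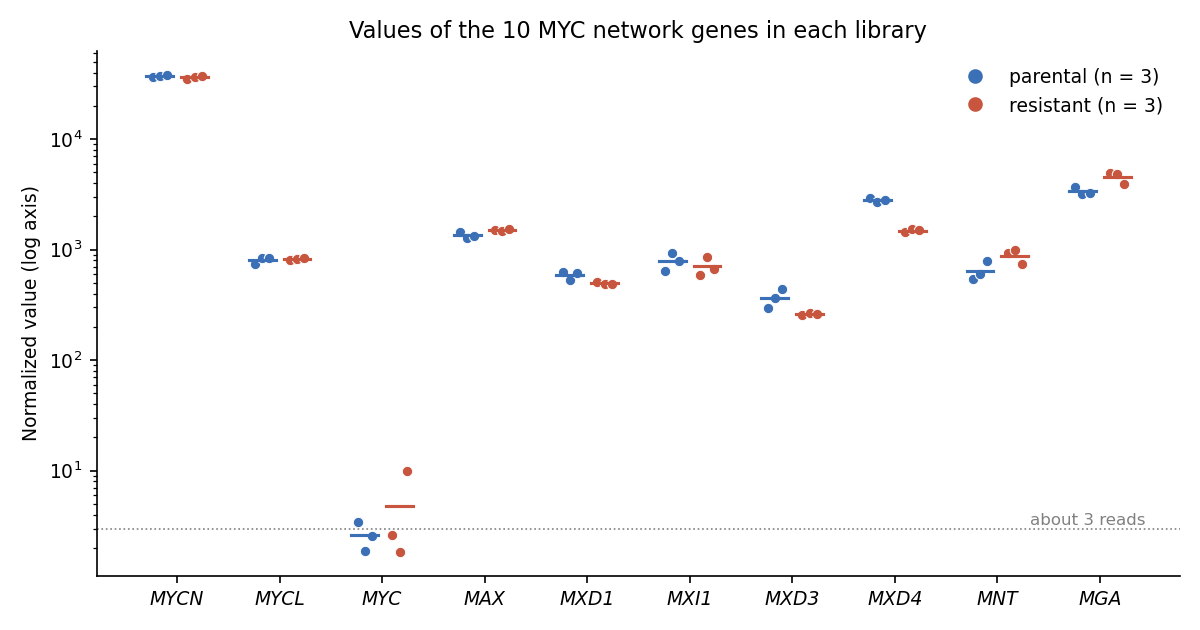
Deposited normalized value (vertical log axis, arbitrary units per gene) of each of the 10 members in the 3 parental (blue) and 3 resistant (red) libraries, with bars at the group means and a dotted line at about 3 reads. *MYCN* lies between 35057 and 38362 in all 6 libraries, *MYC* lies at or near the dotted line apart from 1 resistant library at 9.90, and *MXD4* is separated most clearly between the groups.

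The promoters of the members were searched for the letters that the network itself reads. RefSeq promoter windows on GRCh38.p14, from 250 bases before to 50 after each start, were matched for 9 of the 10 members, in 14 windows. The E-box CACGTG, the same on both strands, was in a window of *MNT* and of *MXD4*, and in 8.8% of the 27305 genes with a window (7.3% of 35116 windows). The E2F letters TTTGGCGC or TTTCGCGC, on either strand, were in a window of *MYCN* and of *MGA*, and in 1.4% of genes (1.1% of windows). The matches are shown because *MXD4* and *MNT*, which changed in opposite directions, were the members with an E-box, and because E2F6 is the partner of MGA. They are given 5′ to 3′ on the gene's strand with the matched letters in capitals. They lie at chr17:2401231-2401270 (minus strand) for *MNT*, chr4:2262325-2262359 (minus) for *MXD4*, chr2:15940357-15940398 (plus) for *MYCN* and chr15:41660665-41660706 (plus) for *MGA*, and none of them falls in an exon of a coding gene.
MNT: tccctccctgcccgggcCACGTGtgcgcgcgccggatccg
MXD4: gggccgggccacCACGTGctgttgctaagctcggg
MYCN: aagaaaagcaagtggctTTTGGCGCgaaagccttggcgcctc
MGA: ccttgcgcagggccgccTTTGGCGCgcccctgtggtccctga
Counted from the start of the transcript, the first matched base was at -193 in *MNT*, -238 in *MXD4*, -176 in *MYCN* and -65 in *MGA*. In *MYCN* a match on the opposite strand, read as GCGCGAAA on the strand shown, began at -172 and overlapped the first. A match is a description of these letters in the window and does not show that a factor was bound.

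*MYCN* (ENSG00000134323, chromosome 2, 15940550 to 15947007) was the MYC paralog with by far the highest level per kb in both lines. Its values were 36470, 37586 and 38362 in parental libraries 1, 2 and 3 and 35057, 36268 and 37132 in resistant libraries 7, 8 and 9. The ranges overlapped, with the lowest value in a resistant and the highest in a parental library. The mean was 37473 ± 951 (SD, n = 3) in parental and 36152 ± 1042 (SD, n = 3) in resistant cells. The log2 fold change was -0.05 (SE 0.06, adjusted p = 0.497 by limma), and its 95% interval, from -0.18 to 0.07, allowed a ratio of resistant to parental between 0.885 and 1.05. Ordered per kb among 20026 coding genes, *MYCN* stood at place 42 in each parental library and at places 34 to 39 in the resistant libraries.

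*MYCL* (ENSG00000116990, chromosome 1, 39895428 to 39902256), the paralog first found amplified in SCLC, was at 739, 847 and 845 in the parental libraries and at 812, 816 and 840 in the resistant libraries. The resistant values lay inside the parental range. Its log2 fold change was 0.02 (SE 0.09, adjusted p = 0.852 by limma, 95% interval -0.17 to 0.22), and it was -0.05 with local median centring and -0.04 without parental library 1.

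*MYC* (ENSG00000136997, chromosome 8, 127735434 to 127742951) was close to the limit of detection in both lines. It had values of 3.41, 1.89 and 2.56 in the parental libraries and of 2.64, 1.85 and 9.90 in the resistant libraries. In 1 library of each group, parental 1 and resistant 9, the value was above that library's 3-read level. No fold change is given, and the exact two-sided permutation p of the 6 values was 0.7. A difference in *MYC* was not detectable at this depth. *PVT1*, the noncoding neighbour of *MYC*, was at 275, 275 and 308 in the parental and 254, 255 and 235 in the resistant libraries (log2 fold change -0.20, adjusted p = 0.221 by limma), and *CASC11* was listed at 0 in all 6.

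Levels of different genes were compared per kilobase of the longest annotated transcript. On that scale *MYCN* was at 14341 ± 364 (SD, n = 3) per kb in parental and 13836 ± 399 (SD, n = 3) in resistant cells. *MYCL* was at 230 ± 17.6 and 234 ± 4.18, and *MYC* at 0.704 ± 0.204 and 1.29 ± 1.19, in the same order and with the same n. *MYCN* therefore made up 98.4 ± 0.0844% (SD, n = 3) of the 3 paralogs in parental and 98.3 ± 0.0244% (SD, n = 3) in resistant cells. *MYCL* made up 1.58 ± 0.0859% and 1.66 ± 0.0254%, and *MYC* 0.00485 ± 0.00151% and 0.00905 ± 0.00816%.

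*MAX* (ENSG00000125952, chromosome 14, 65006174 to 65102695), the shared partner of the MYC paralogs and their antagonists, was at 1434, 1284 and 1332 in the parental libraries and at 1508, 1479 and 1526 in the resistant libraries. All resistant values were above all parental values, with the smallest gap between parental library 1 and resistant library 8. The log2 fold change was 0.16 (SE 0.07, 95% interval -0.01 to 0.32) and did not pass the test (adjusted p = 0.119 by limma). The call depended on the scaling. With quantile normalization it was 0.21 (adjusted p = 0.0349 by limma) and with upper quartile scaling 0.20 (adjusted p = 0.0442), both past the threshold. Of the 20 tested genes nearest to *MAX*, 10 on each side, 17 had a positive log2 fold change, 15 were called higher, and their median was 0.46. Relative to its surroundings *MAX* was lower, with a log2 fold change of -0.27 after local median centring (adjusted p = 0.0162 by limma). *MYCN* exceeded *MAX* per kb by 33.6 ± 2.53 times (SD, n = 3) in parental and 29.0 ± 0.827 times (SD, n = 3) in resistant cells. This ratio depends on the length given to *MAX*, since with the union of exons it was 63.2 and 54.6.

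*MXD4* (ENSG00000123933, chromosome 4, 2247432 to 2262109), an antagonist of MYC linked to differentiation and growth arrest, fell in resistant cells. Its values were 2948, 2675 and 2795 in the parental libraries and 1431, 1533 and 1507 in the resistant libraries. The lowest parental value was well above the highest resistant value, and the libraries of each group lay close together. The mean went from 2806 ± 137 (SD, n = 3) to 1490 ± 52.9 (SD, n = 3), a ratio of 0.531. The log2 fold change was -0.91 (SE 0.07, 95% interval -1.07 to -0.76, adjusted p = 8.5e-06 by limma), and it passed the test under every alternative. The 20 genes nearest to *MXD4* had a median log2 fold change of -0.09, and 4 of them were called lower.

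*MXD3* (ENSG00000213347, chromosome 5, 177301461 to 177312757), the family member expressed in dividing cells, was at 295, 368 and 439 in the parental libraries and at 258, 268 and 260 in the resistant libraries. The groups did not overlap, but the parental libraries spread widely, and parental library 1 lay nearer to the resistant libraries than to parental library 3. The mean went from 367 ± 71.7 (SD, n = 3) to 262 ± 5.17 (SD, n = 3). On the log2 scale this was -0.47 (SE 0.15, 95% interval -0.80 to -0.13, adjusted p = 0.0340 by limma). Without any 1 of parental libraries 2 and 3 and resistant libraries 7, 8 and 9 the call was lost, with adjusted p from 0.0711 to 0.135 by limma, as it was with upper quartile scaling (0.0549) and without an intensity trend (0.0654). The 20 nearest genes had a median of -0.18, and after local median centring the adjusted p was 0.168.

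*MXD1* (ENSG00000059728, chromosome 2, 69897688 to 69942945), which rises when blood and epithelial cells differentiate, was at 634, 536 and 612 in the parental libraries and at 509, 489 and 490 in the resistant libraries. All resistant values were below all parental values. Its log2 fold change was -0.26 (SE 0.10, adjusted p = 0.0707 by limma), beside a median of -0.25 for its 20 nearest genes. It passed the test without parental library 2 (-0.33, adjusted p = 0.0381 by limma).

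*MXI1* (ENSG00000119950, chromosome 10, 110207605 to 110287365), also called MXD2, was at 638, 927 and 793 in the parental libraries and at 591, 865 and 665 in the resistant libraries. The groups overlapped almost over their full ranges, since the libraries of each group differed widely. The log2 fold change was -0.15 (SE 0.16, 95% interval -0.52 to 0.21, adjusted p = 0.487 by limma).

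*MNT* (ENSG00000070444, chromosome 17, 2384073 to 2401104), the antagonist that most cells express whether or not they divide, was at 540, 602 and 789 in the parental libraries and at 926, 995 and 736 in the resistant libraries. The groups overlapped, because resistant library 9 was below parental library 3. The mean went from 644 ± 129 (SD, n = 3) to 885 ± 134 (SD, n = 3), a ratio of 1.38. On the log2 scale this was 0.47 (SE 0.15, 95% interval 0.12 to 0.81, adjusted p = 0.0363 by limma). The exact two-sided permutation p was 0.2. The call was lost without parental library 1 (adjusted p = 0.124 by limma), parental library 2 (0.0903), resistant library 7 (0.0989) or resistant library 8 (0.130), and in the fit without an intensity trend (0.108). Its 20 nearest genes had a median log2 fold change of -0.02.

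*MGA* (ENSG00000174197, chromosome 15, 41621134 to 41773081), which carries both a T-box and a MAX-binding domain, rose. Its values were 3722, 3178 and 3274 in the parental libraries and 4941, 4856 and 3908 in the resistant libraries. The groups did not overlap, although resistant library 9 lay nearer to parental library 1 than to the other resistant libraries. The mean went from 3391 ± 290 (SD, n = 3) to 4568 ± 574 (SD, n = 3), a ratio of 1.34. Its log2 fold change was 0.43 (SE 0.10, 95% interval 0.21 to 0.64, adjusted p = 0.00708 by limma). The 20 nearest genes had a median of 0.26, and with local median centring *MGA* was at 0.26 and no longer past the threshold (adjusted p = 0.102 by limma). The longest *MGA* transcript has 14568 bases, and the 734 tested genes with a transcript of 10 kb or more had a median log2 fold change of 0.15. Within the libraries the median deviation of those long genes was 0.08 and 0.15 in resistant libraries 7 and 8, against -0.02 in resistant library 9 and -0.06 to -0.07 in the parental libraries. Resistant library 9 was thus the lowest of its group both for *MGA* and for the long genes. The part of transcript length in the *MGA* result was not tested.

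**Figure D2:**
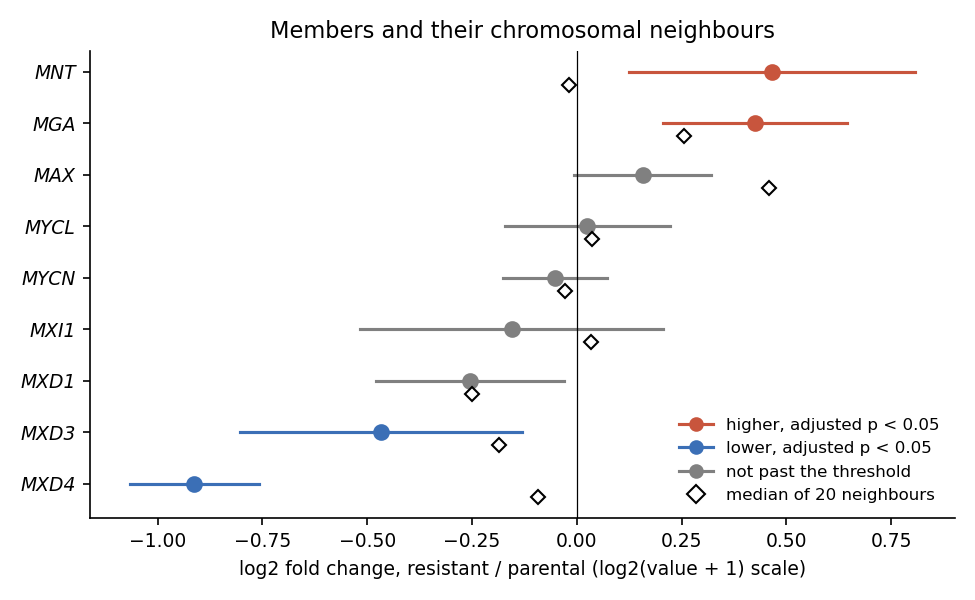
Log2 fold change of resistant over parental cells on the log2(value + 1) scale for the 9 tested members (filled circles, with 95% confidence intervals from limma) and the median log2 fold change of the 20 nearest tested genes of each member (open diamonds). *MXD4* at -0.91 and *MNT* at 0.47 lie far from neighbours at -0.09 and -0.02, *MAX* lies below its neighbours, and *MXD1* coincides with them.

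The order of the members per kb shifted around *MXD4*. In parental cells *MYCN* was followed by *MXD4* at 664 ± 32.3 (SD, n = 3), *MAX* at 428 ± 24.3 and *MGA* at 233 ± 19.9, then *MYCL*, *MXI1*, *MXD3*, *MNT* and *MXD1*, with *MYC* last. From *MGA* down to *MXD1* each gene overlapped the next in the order. In resistant cells *MAX* was next after *MYCN*, at 477 ± 7.48 (SD, n = 3), above *MXD4* at 352 ± 12.5, and *MXD4* overlapped *MGA* at 314 ± 39.4. *MYCL*, *MXI1* and *MNT* followed with overlapping neighbours, and *MXD3* and *MXD1* were lower without overlap. Both orders are given for the longest transcripts only, and other lengths moved the ratio of *MYCN* to *MAX*.

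Summed over *MXD1*, *MXD3*, *MXD4*, *MXI1* and *MNT*, the antagonists were at 1234, 1280 and 1352 per kb in the parental libraries and at 901, 1019 and 899 in the resistant libraries. No resistant library reached the lowest parental one. *MXD4* held 51.6 ± 4.24% (SD, n = 3) of that sum in parental and 37.6 ± 2.02% (SD, n = 3) in resistant cells, while *MNT* held 10.1 ± 1.55% and 19.1 ± 2.21%. *MYCN* exceeded the sum by 11.1 ± 0.242 times (SD, n = 3) in parental and 14.8 ± 1.09 times (SD, n = 3) in resistant cells. These sums and shares describe transcripts and have no test of their own.

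The genes on either side of *MYCN* did not all move alike. *DDX1*, an RNA helicase gene often amplified with *MYCN* and starting at -349.4 kb from its start, was at 153990, 120280 and 131890 in the parental and 140970, 127430 and 129660 in the resistant libraries. Per kb it stood at places 11 to 24 among the coding genes in parental and 10 to 15 in resistant libraries, above *MYCN*, and its log2 fold change was -0.02 (SE 0.09, adjusted p = 0.866 by limma), with a sign that differed between alternatives. *NBAS*, a gene of Golgi-to-ER transport starting at -773.6 kb, was at 33290, 35874 and 37261 in the parental and at 43373, 48779 and 47526 in the resistant libraries. *NBAS* was higher in every resistant library (log2 fold change 0.39, SE 0.07, adjusted p = 0.00141 by limma). Per kb it stood at places 275 to 321 in parental and 147 to 189 in resistant libraries. *CYRIA*, 608.9 kb beyond *MYCN*, was at 856 to 1021 in parental and 872 to 947 in resistant libraries (log2 fold change -0.04, adjusted p = 0.790 by limma).

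The antisense transcript *MYCNOS* was at 762, 980 and 1071 in the parental and at 784, 676 and 835 in the resistant libraries. The groups overlapped, and the log2 fold change was -0.28 (SE 0.13, adjusted p = 0.119 by limma), and -0.43 (adjusted p = 0.0193) without parental library 1. *MYCNOS* and *MYCN* share 1700 bases, from 15940550 to 15942249 on chromosome 2, and the library kit does not mark strand, so reads of the pair cannot be told apart there. *GACAT3*, 73.4 kb beyond the start of *MYCN*, was at 217, 255 and 297 in the parental and 222, 203 and 212 in the resistant libraries (log2 fold change -0.26, adjusted p = 0.196 by limma), and *MYCNUT* was at 2.67 in parental library 1 and listed at 0 in the others. An unnamed noncoding gene that overlaps *GACAT3* on the opposite strand, ENSG00000226764, was chosen after its values were seen. ENSG00000226764 was at 528, 519 and 491 in the parental and at 144, 166 and 173 in the resistant libraries (log2 fold change -1.67, SE 0.13, adjusted p = 8.0e-06 by limma). ENSG00000223536, another noncoding gene named for its values, 787.6 kb beyond the start of *MYCN*, was higher, at 527 ± 14.1 (SD, n = 3) in parental and 660.0 ± 42.4 (SD, n = 3) in resistant cells (0.32, SE 0.09, adjusted p = 0.0214). Of the 5 genes listed for the locus on the *MYCN* side that were tested, only *NBAS* passed the threshold. Over the whole locus list 16.7% of tested genes were called, beside 37.7% of all genes tested.

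**Figure D3:**
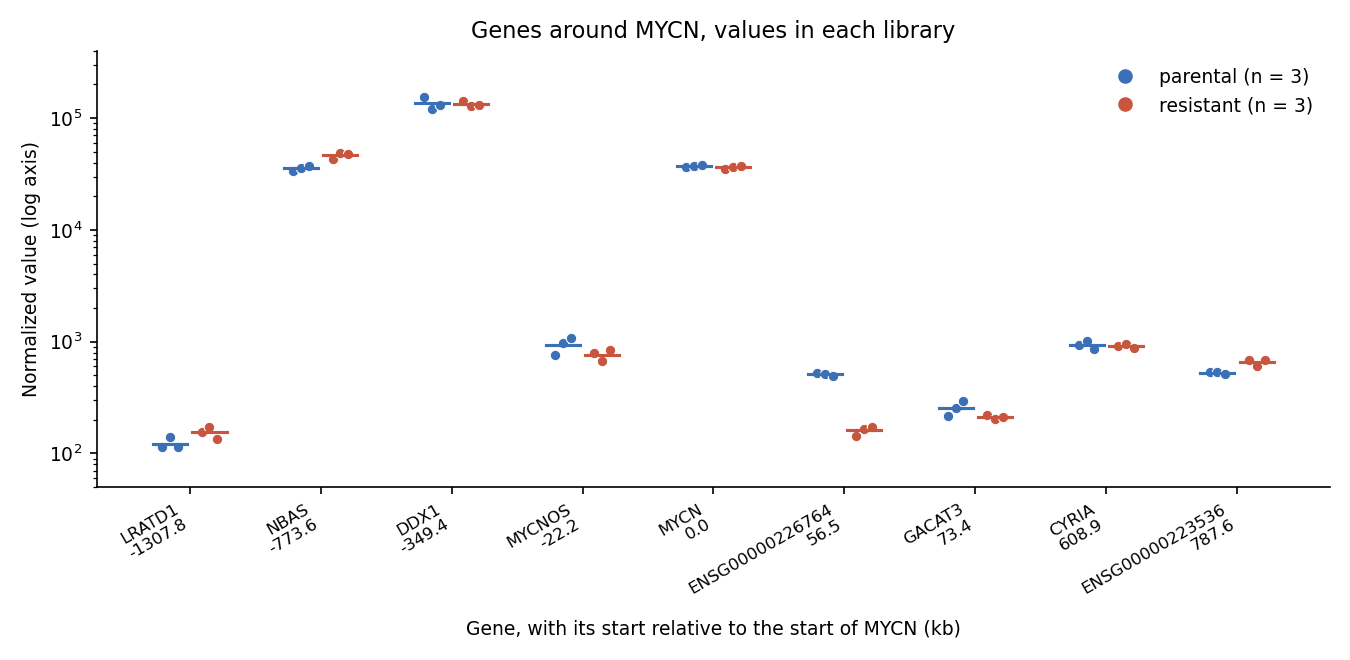
Normalized value (vertical log axis) in each parental (blue) and resistant (red) library of the genes tested within 1.5 Mb on each side of *MYCN*, in chromosomal order with the distance of each start from that of *MYCN* in kb, and bars at the group means. The *MYCN* and *DDX1* values of the groups overlap, *NBAS* is higher in all resistant libraries, and ENSG00000226764 is lower in all of them.

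The genes whose values followed *MYCN* most closely over the 6 libraries were *ENOSF1* (Pearson r = 0.993), *KATNAL2* (0.982) and *TEDC2-AS1* (0.981). *ENOSF1* was at 218 to 352, *TEDC2-AS1* at 14.6 to 39.3 and *KATNAL2* at 1.39 to 26.4. The lowest *KATNAL2* value, in resistant library 7, was below that library's 3-read level of 3.14. Since 146 genes had r over 0.9 with these 6 points, which fall into 2 groups, this is a description of the libraries and carries no test.

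The MLX branch is the sister network in which MLX pairs with the glucose sensors MLXIP and MLXIPL. Of its 5 listed genes, all tested, 2 were higher, 0 were lower and the median log2 fold change was -0.08. Over all genes tested 37.7% were called, 17.8% higher and 19.8% lower. The share called in the branch is near that of all genes, and nothing is read from the count. *MLXIPL*, which encodes ChREBP, was at 71.6, 194 and 97.3 in the parental and at 331, 350 and 319 in the resistant libraries (log2 fold change 1.58, SE 0.30, adjusted p = 0.00224 by limma). *TXNIP*, a target that restrains glucose uptake, was at 525, 1679 and 986 in the parental and at 2664, 3235 and 2981 in the resistant libraries (1.63, SE 0.32, adjusted p = 0.00265). The groups did not overlap for either, and parental library 2 was the highest parental library for both. *MLX* (-0.17, adjusted p = 0.124 by limma), *MLXIP* (-0.08, adjusted p = 0.394) and *ARRDC4* (-0.40, adjusted p = 0.185) did not pass, although after local median centring *MLX*, at -0.24 (adjusted p = 0.0387 by limma), and *MLXIP*, at 0.49 (adjusted p = 0.000799), were past the threshold.

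Cofactors and turnover genes act on the MYC and MYCN proteins. Of 20 cofactors 5 were higher and 5 lower, with a median of -0.002. In all genes tested 37.7% were called, 17.8% higher and 19.8% lower. Without parental library 2, resistant library 7 or resistant library 8, or without the intensity trend, 1 cofactor was called higher and 4 to 6 lower. *BPTF*, of the NURF chromatin remodeller, was higher (0.39, adjusted p = 0.00414 by limma), but not past the threshold after local median centring (0.19, adjusted p = 0.137), and *SKP2* (-0.38, adjusted p = 0.000859), *ACTL6A* (-0.35, 0.00429) and *RUVBL2* (-0.25, 0.00929) were lower. Of 19 turnover genes 2 were higher and 3 lower (26.3% called, beside 37.7% of all genes tested), with a median of -0.05. *USP28*, a deubiquitinase that spares MYC from degradation, rose by 0.61 (SE 0.07, adjusted p = 7.8e-05 by limma), and *HUWE1*, a ubiquitin ligase of both MYC and MYCN, rose by 0.73 (SE 0.12, adjusted p = 0.00100) with resistant library 9 lowest of its group at 36511 against 49259 and 53032. *STUB1*, a ubiquitin ligase that works with chaperones, was lower (-0.62, adjusted p = 0.000248 by limma). *PLK1*, the target of the drug, was at 5556, 4798 and 5578 in the parental and at 5819, 5288 and 5420 in the resistant libraries (0.06, adjusted p = 0.598 by limma). *AURKA* (0.00, adjusted p = 0.978 by limma) and *FBXW7* (-0.05, adjusted p = 0.815), the kinase that shields MYCN and the ligase that removes it, also overlapped between the groups.

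MXD proteins and MNT repress through SIN3 and NCOR, and MGA through PRC1.6. Of 16 SIN3 and NCOR corepressor genes 4 were higher and 5 lower (56.2% called), with a median of -0.02. Among all genes tested 37.7% were called, 17.8% higher and 19.8% lower. *ING1*, a reader of histone methylation in the SIN3 complex, was at 1322, 1367 and 1281 in the parental and at 688, 749 and 720 in the resistant libraries (-0.88, SE 0.08, adjusted p = 2.4e-05 by limma). *HDAC1* was also lower (-0.38, adjusted p = 0.00165 by limma), as was *SUDS3* (-0.57, 0.00183), and *BRMS1L* was higher (0.65, 0.00143). After local median centring *SUDS3* was at -0.0497 (adjusted p = 0.756 by limma) and *BRMS1L* at 0.16 (adjusted p = 0.344), both no longer past the threshold. Of 11 further PRC1.6 subunits 0 were higher and 3 lower (27.3% called, beside 37.7% of all genes tested), with a median of -0.09. Those lower were *L3MBTL2* at -0.77 (SE 0.10, adjusted p = 0.000183 by limma), *E2F6* at -0.50 (SE 0.10, adjusted p = 0.00245) and *CBX3* at -0.27 (SE 0.08, adjusted p = 0.0246). *CBX3* did not pass with quantile normalization (-0.16, adjusted p = 0.0894 by limma), without the trend (0.0991), or without parental library 1 (-0.18, 0.0515) or resistant library 8 (-0.24, 0.0814). *MGA* was higher. Of 16 germline genes that PRC1.6 silences 4 reached the mean needed for the test. *MEIOC* alone of these 4 was called, beside 37.7% of all genes tested. It was at 0.35 (SE 0.08, adjusted p = 0.00686 by limma), and at 0.16 (adjusted p = 0.156) it was not called after local median centring. *DDX4*, *DAZL*, *SYCP1*, *TDRD1*, *HORMAD1* and *MOV10L1* were listed at 0 in all 6 libraries.

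Known targets were divided by what they do. Of 30 ribosome production genes 10 were lower and 0 higher (33.3% called, beside 37.7% of all genes in either direction and 19.8% lower), with a median log2 fold change of -0.15. *NPM1*, a nucleolar chaperone with many processed copies among which reads may be split, was at 14053, 12615 and 13011 in the parental and at 6571, 6051 and 5858 in the resistant libraries (-1.10, SE 0.07, adjusted p = 2.4e-06 by limma). The part of such splitting of reads in the *NPM1* result was not tested. *UBTF* (-0.45, adjusted p = 0.000463 by limma), *EBNA1BP2* (-0.42, 0.00127) and *MRTO4* (-0.40, 0.00858) were lower by less. Of 27 metabolism genes 5 were higher and 7 lower (44.4% called, beside 37.7% of all genes), with a median of -0.07. *ODC1*, the rate-limiting enzyme of polyamine synthesis, was at 17699, 16356 and 19165 in the parental and at 9462, 7589 and 7699 in the resistant libraries (-1.11, SE 0.09, adjusted p = 1.4e-05 by limma), and *SLC7A5*, a leucine transporter, was lower as well (-0.83, SE 0.07, adjusted p = 1.1e-05). *GART*, of purine synthesis, and *SLC19A1*, a folate carrier, were higher (0.99 and 1.09), but both lie on chromosome 21, and after local median centring they were at -0.04 and -0.22.

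Among 15 genes listed as repressed by MYC 13 were tested, of which 5 were higher and 3 lower (61.5% called), with a median of 0.04. Of all genes tested 37.7% were called, 17.8% higher and 19.8% lower. *NDRG2* was at 33.7, 74.0 and 51.3 in the parental and at 400.2, 384 and 496 in the resistant libraries (3.05, SE 0.26, adjusted p = 1.6e-05 by limma). *CEBPA*, a differentiation factor, was higher at 1.41 (SE 0.10, adjusted p = 6.5e-06 by limma) and *THBS1*, an inhibitor of vessel growth, at 1.84 (SE 0.22, adjusted p = 0.000142), while *GAS1* was lower at -1.26 (SE 0.18, adjusted p = 0.00041). *NDRG3* (0.28, adjusted p = 0.00805 by limma) and *COL1A2* (1.15, adjusted p = 0.00860) were the other genes called higher. *CDKN2B* (-0.80, SE 0.14, adjusted p = 0.00182 by limma) and *CDKN1C* (-0.65, SE 0.15, adjusted p = 0.00789) were the other genes called lower. *CDKN1A*, the p21 cell cycle inhibitor, and *NDRG1* did not pass, with log2 fold changes of -0.16 (adjusted p = 0.158 by limma) and 0.70 (adjusted p = 0.0858).

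**Figure D4:**
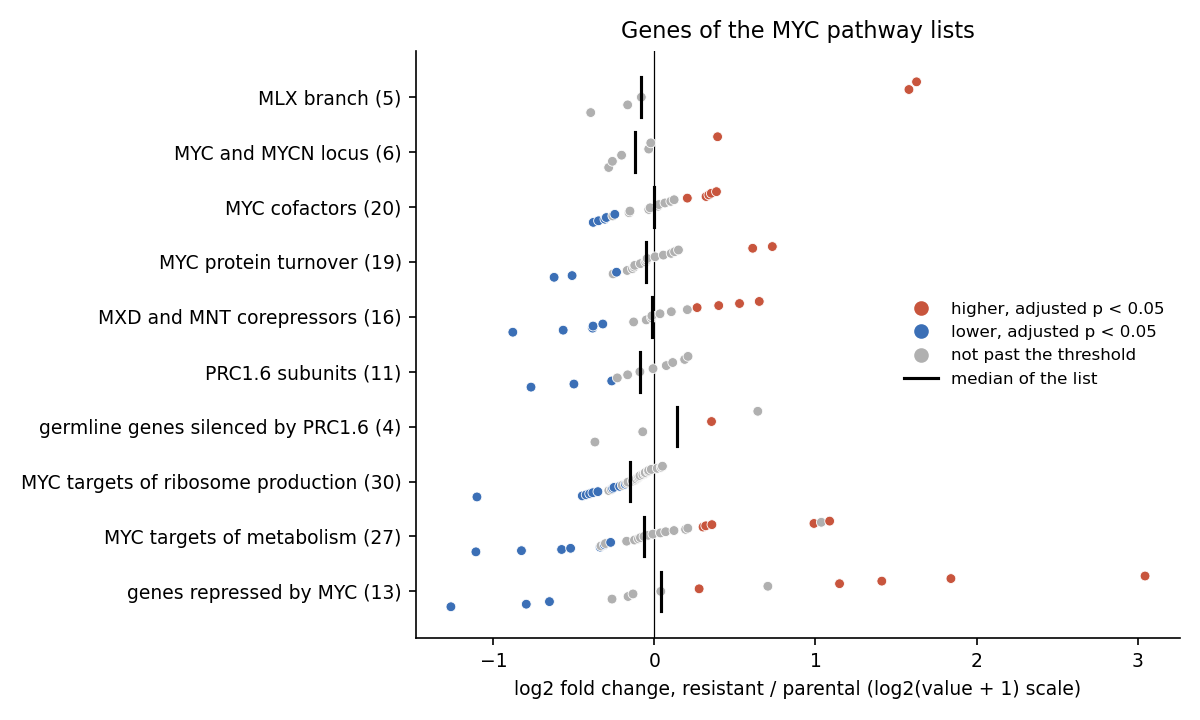
Log2 fold change of resistant over parental cells on the log2(value + 1) scale for every tested gene of the 10 pathway lists (points, number of genes in brackets), coloured by the limma call, with a black bar at the median of each list. All called ribosome production genes lie on the lower side, and the MLX branch holds both *MLXIPL* and *TXNIP* far to the right of its other genes.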

How the data were processed

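RNA of 3 parental and 3 onvansertib-resistant H526 extractions was sequenced from libraries of a kit that does not mark strand. Per the study's methods and the submitters' processing notes, the authors trimmed reads with Trimmomatic 0.38, aligned and quantified them with RSEM 1.3.1 and STAR on GRCh38 with the Gencode v43 annotation, and normalized with DESeq2 1.30.0. What they deposited is a DESeq2-scaled signal for every gene in each library, never negative and not filtered. Between 58.4% and 66.7% of low values per library were whole multiples of 1 step to within 0.1 of it, so whole reads were not recovered and count tests were not run. Depth is the sum of values over that step.

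The 47 second copies of pseudoautosomal genes were dropped from 62757 rows, and Gencode v44 gave symbols to 62639 of 62710. Genes averaging at least 10 were log2-transformed after adding 1 and compared in limma 3.58.1 under R 4.3.3 (lmFit, eBayes with intensity trend, condition only, Benjamini-Hochberg at 0.05). The fit was tested on simulated data with independent values, where the share of unchanged genes among its calls was above 0.05. Far fewer genes were changed in the simulated data than were called here, so that share may differ for the calls given. Local median centring subtracts the median deviation of 51 neighbouring genes. Named genes were the members, the MLX branch and MYC locus lists, *PLK1*, *AURKA*, *FBXW7*, up to 4 genes of smallest p in every other list, the 3 most like *MYCN*, and genes needed for counts of 5 or fewer; *CDKN1A*, *NDRG1*, ENSG00000226764, ENSG00000223536 and marker genes stand outside it. Some genes the rule names are not reported here. Members and lists were chosen with earlier results of these data known, and the target lists come from general knowledge. Other steps ran in Python 3.11.15 (pandas 2.3.3, numpy 2.4.6), and figures in matplotlib 3.10.9. The alternatives changed 1 choice at a time: a pseudocount of 0.1 or 10, testing all rows, requiring a mean of 50, quantile and upper quartile scaling, no trend, local centring, each library left out, other transcript lengths and 5 or 25 neighbours a side.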

Additional observations from a re-analysis of the deposited data

How the results depend on the processing

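*MXD4*, *MYCN* and *MXI1* kept direction and side of the threshold under every alternative run. Over the 9 tested members, 63 of 72 log2 fold changes under other settings and 43 of 54 with 1 library left out did so. The number of members called was 2 without the intensity trend and 2 to 3 with 1 library left out, lowest without resistant library 7 or 8. Without the trend 5 cofactors, 4 ribosome, 7 metabolism and 2 germline genes were called. With local median centring 4 MLX branch, 5 corepressor and 0 germline genes were called. Over all 16347 genes tested the calls fell as well, from 6161 in the main fit to 5072 without the trend and 4932 with local median centring. With 1 library left out the calls ran from 1 to 2 for the locus list, from 6 to 10 for cofactors and from 6 to 9 for ribosome genes. All genes called ran from 4784 to 5618. With the union of exons *MYCN* made up 98.8% and 98.7% of the paralogs in parental and resistant cells, *MYCN* over *MAX* was 63.2 and 54.6, and the antagonist sum 786 and 572; with MANE Select lengths these were 21.4 and 18.5, and 1533 and 1103. Signs turned with local centring for *MYCL* (-0.0499), *MAX* (-0.27), *MLXIP* (0.49), *ARRDC4* (0.0375), *DDX1* (0.0541), *STAG3* (0.17), *GART* (-0.0432), *SLC19A1* (-0.22) and *AURKA* (-0.0452), with quantile normalization for *MLXIP* (0.0195) and *CYRIA* (0.0038), and with upper quartile scaling for *DDX1* (0.0226) and *CYRIA* (0.0098). With 1 library left out *MYCL* ran from -0.0402 to 0.0584, *DDX1* from -0.10 to 0.0737, *CYRIA* from -0.0977 to 0.0298, *PLK1* from -0.0163 to 0.0923, *AURKA* from -0.0683 to 0.11 and *FBXW7* from -0.25 to 0.11. The cause of these changes was not tested. With 5 genes on each side the median of the neighbours of *MYCL* was 0.32 in place of 0.04, and that of *MXD4* -0.29 in place of -0.09. The fits were unpaired, because the labels give the lines no shared replicate number and do not say which extractions belong together. The paper describes the parental and resistant cells as matched. Any effect shared by an extraction of each line therefore stayed in the error of the fits, and its size was not tested. Depth limits what can be said of *MYC*.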
